A study of Rattus norvegicus with 12 samples.

Results

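The nucleolar ribosome assembly proteins were taken as the probe sets whose single gene symbol in the platform annotation is Ncl, Npm1, Nolc1, Dkc1, Gnl3 or Fbl, a rule that uses no measured value. It gave 10 of 8740 probe sets on a rat expression array, and these belong to 4 of the 6 genes (of 4736 genes with a probe set of their own): Gnl3 and Nolc1 with 3 each, Ncl and Dkc1 with 2 each. Npm1 had only 2 probe sets, both of them annotated to a pseudogene as well, and Fbl had none that names it, so neither was analysed here. The cells are CC531, a rat colon carcinoma line, and each of the 12 arrays holds 1 sample of total RNA. There were 5 arrays of cells treated with 4.5 mM butyrate and 5 of cells treated with 3 mM aspirin, in both cases after 2, 6, 12, 16 and 24 h, and 2 arrays of untreated cells, at 2 and 24 h. The labels do not say whether separate cultures were used, so the p-values speak only of the spread among the arrays at hand, part of which may be technical. In the comparisons with untreated cells the 5 hours of a drug were taken as 1 group. The spread there also holds any change over the hours. Untreated cells were sampled at no other hour, so at 6, 12 and 16 h an effect of a drug and an effect of time in culture cannot be told apart from these arrays.

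The nucleolus is where ribosomal RNA is transcribed, cut, chemically modified and packed with ribosomal proteins into subunits. Nucleolin (Ncl) is an abundant RNA-binding protein that acts on the nascent ribosomal RNA. Dyskerin (Dkc1) is the pseudouridine synthase of the box H/ACA small nucleolar ribonucleoproteins and a subunit of telomerase. Nolc1, also called Nopp140 and first described in rat, is a heavily phosphorylated chaperone of small nucleolar ribonucleoproteins, and nucleostemin (Gnl3) is a GTP-binding nucleolar protein of dividing and stem cells that takes part in large-subunit assembly. Butyrate is a short-chain fatty acid of the gut that inhibits histone deacetylases, and aspirin inhibits the cyclooxygenases.

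Because the 4 genes were measured together in one experiment, the 250 bases before each annotated start are shown for comparison, read from RefSeq on build GRCr8, 5′ to 3′ on the strand of the gene. All 4 genes were matched by symbol. The windows are chrX:157751401-157751650 (plus strand) for Dkc1, chr16:6219783-6220032 (minus strand) for Gnl3, chr9:94456084-94456333 (minus strand) for Ncl and chr1:254870109-254870358 (plus strand) for Nolc1. Capitals mark the E-box CACGTG, the motif that Myc with Max is known to bind, and CCGGAAG, a core bound by ETS factors, on either strand.
Dkc1: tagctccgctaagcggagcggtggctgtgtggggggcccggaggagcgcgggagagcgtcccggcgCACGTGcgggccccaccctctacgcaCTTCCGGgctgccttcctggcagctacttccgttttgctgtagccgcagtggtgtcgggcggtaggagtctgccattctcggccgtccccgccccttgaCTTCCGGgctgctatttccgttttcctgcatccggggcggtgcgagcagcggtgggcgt
Gnl3: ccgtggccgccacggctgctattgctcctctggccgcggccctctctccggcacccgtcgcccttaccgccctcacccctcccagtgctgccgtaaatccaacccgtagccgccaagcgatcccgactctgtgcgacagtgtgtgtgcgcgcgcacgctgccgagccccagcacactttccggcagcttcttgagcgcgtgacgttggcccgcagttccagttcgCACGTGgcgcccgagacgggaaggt
Ncl: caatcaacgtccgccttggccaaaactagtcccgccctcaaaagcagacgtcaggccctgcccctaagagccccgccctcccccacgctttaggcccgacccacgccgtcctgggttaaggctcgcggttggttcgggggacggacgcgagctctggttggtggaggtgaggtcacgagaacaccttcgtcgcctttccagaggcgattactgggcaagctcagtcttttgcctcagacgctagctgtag
Nolc1: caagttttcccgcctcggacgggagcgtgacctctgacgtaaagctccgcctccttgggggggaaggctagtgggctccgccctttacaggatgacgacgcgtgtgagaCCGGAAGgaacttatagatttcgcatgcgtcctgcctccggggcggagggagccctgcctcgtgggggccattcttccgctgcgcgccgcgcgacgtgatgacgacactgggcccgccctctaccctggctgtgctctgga

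CACGTG, which reads the same on both strands, was found in 2 of the 4 windows, 184 bases before the start of Dkc1 and 25 before that of Gnl3. The same letters stood in 5.59% of 33469 rat windows of this length. CCGGAAG was found 158 and 59 bases before the start of Dkc1, both times as its reverse complement, and 141 before that of Nolc1, against 7.27% of all windows. The GC box GGGCGG, which Sp1 is known to bind, was left in lower case because all 4 windows hold it on one strand or the other, as do 30.5% of all windows. No match overlapped another. The windows are GC-rich, with 62.0% G and C for Ncl and 65.2 to 68.8% for the others. A match is only a description of these letters, and a missing one says nothing of a factor.

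The values are deposited intensities on a linear scale, of which 21.5 to 25.5% were below 0 on each array. For tests, values under 90.91 were raised to that floor, log2 was taken, and 6118 probe sets bright enough were fitted together with limma, with Benjamini-Hochberg adjustment over all of them and a threshold of 0.05. All 10 nucleolar probe sets passed this filter. The untreated arrays at 24 and 2 h differed at least 2-fold at 16.5% of the tested probe sets. The epithelial markers Krt8, Krt18 and Epcam were bright on every array, with lowest intensities of 12225, 13551 and 8234, while Fabp1 and Fabp2, of absorptive gut cells, were at the floor on 12 and 9 arrays and Krt20 on 6. Of 12 tested epithelial markers Krt19 was called higher with butyrate than in untreated cells (0.87, limma, adjusted p = 0.0166), Krt18 lower (-0.48, adjusted p = 0.0258) and the others neither. Summed intensities of the 13 epithelial markers on the array ranged from 64608 to 78292 with butyrate, 71412 to 81104 with aspirin and 68362 to 85457 in untreated cells. Those of 15 fibroblast and smooth muscle markers ranged from 9606 to 12550 with butyrate, 12567 to 15592 with aspirin and 14948 to 15028 in untreated cells, with Pdgfrb and Postn at the floor on every array and fibronectin, Fn1, lower by 0.90 with butyrate on its brightest probe set (adjusted p = 0.0263). Those of 14 blood and immune markers ranged from 2774 to 3293 with butyrate, 3293 to 6447 with aspirin and 3680 to 4882 in untreated cells, with Cd8a, Fcgr2b and Cd2 at the floor throughout. Those of 8 endothelial markers ranged from 1095 to 1472 with butyrate, 1114 to 1472 with aspirin and 1464 to 1749 in untreated cells, with Vwf and Sele at the floor throughout. The part of these shifts in the results below was not tested.

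**Figure D1:**
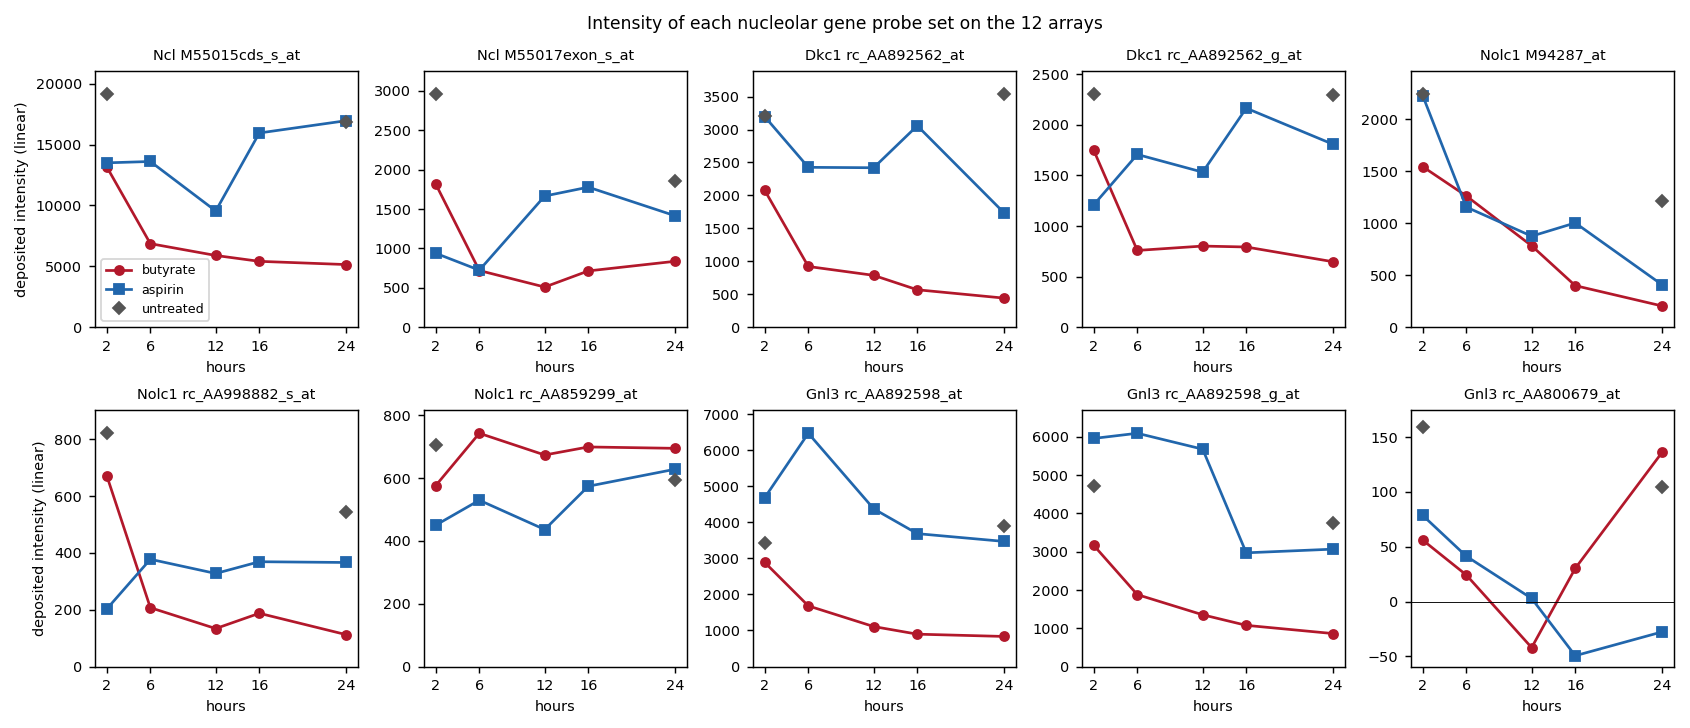
Deposited intensity (linear, vertical axis) of each of the 10 probe sets against hours (horizontal axis), with 1 point per array: circles for butyrate, squares for aspirin, diamonds for untreated cells. On 6 probe sets every butyrate point lies under both untreated points; Nolc1 rc_AA859299_at stays between 436.4 and 742.9 on all arrays, and Gnl3 rc_AA800679_at lies near 0.

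The first comparison set the butyrate arrays of all hours against the untreated arrays. It does not separate the drug from time in culture at the hours without an untreated array. Ncl, Dkc1 and Gnl3 were lower with butyrate on 6 probe sets, with log2 differences from -2.03 to -1.38, and on 5 of these 6 the level also fell over the hours of treatment. Of the 10 probe sets 6 passed the test as lower and 0 as higher, where 3.92% of all tested probe sets were called lower. The median difference was -1.43 over the 10 and 0.00085 over all tested probe sets. The 2 Dkc1 probe sets come from 1 transcript tag, as do 2 of Gnl3, so these 6 calls are not 6 separate measurements.

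Nucleolin was the brightest of the genes. Its coding-sequence probe set (M55015cds_s_at) read 13170.1, 6864.0, 5894.2, 5412.2 and 5146.4 after 2, 6, 12, 16 and 24 h of butyrate, against 19156.6 and 16814.5 in untreated cells at 2 and 24 h. All 5 butyrate values lay under both untreated ones, the later ones at 38.2% of the untreated mean or less. The mean log2 level was 12.74 ± 0.55 with butyrate (SD, n = 5) and 14.13 ± 0.13 in untreated cells (SD, n = 2), and the difference of -1.39 ± 0.31 (SE) passed limma's test (adjusted p = 0.0137). The second Ncl probe set (M55017exon_s_at), named for an exon of the gene, read 1817.7, 720.1, 510.4, 715.1 and 837.9 with butyrate, against 2962.1 and 1859.9 in untreated cells. Here the butyrate 2 h value lay just under that of untreated 24 h, and the lowest value was that of 12 h. The difference had an interval of -2.46 to -0.53 and passed close to the threshold (limma, adjusted p = 0.0467).

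Dyskerin showed the deepest fall at 24 h among the 6 called probe sets. Dkc1 rc_AA892562_at read 2076.9, 922.0, 787.4, 568.6 and 441.5 over the hours of butyrate, against 3209.3 and 3539.8 in untreated cells. Each later butyrate array was lower than the one before, and the last stood at 0.125 of untreated cells at the same hour, with 1 array on each side. The difference over the groups was -2.03 (95% interval -2.99 to -1.07, limma, adjusted p = 0.0136). Its companion rc_AA892562_g_at read 1748.6, 758.8, 802.1, 792.9 and 646.5 with butyrate, against 2304.9 and 2297.7 in untreated cells. That probe set reached its lower level by 6 h and stayed between 28.1 and 34.9% of the untreated mean, and its difference was -1.38 (-2.10 to -0.65, adjusted p = 0.0209).

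Nucleostemin fell by similar amounts on both bright probe sets. Gnl3 rc_AA892598_at read 2887.7, 1682.6, 1109.0, 898.0 and 834.4 with butyrate, against 3417.0 and 3891.9 in untreated cells. The probe set rc_AA892598_g_at read 3168.1, 1880.0, 1352.6, 1076.8 and 860.9, against 4717.8 and 3757.3. On both the order of the arrays followed the hours and no butyrate value reached the untreated ones. The differences were -1.46 ± 0.40 (limma, adjusted p = 0.0324) and -1.49 ± 0.44 (adjusted p = 0.0411). The third probe set, rc_AA800679_at, lay near the floor, with 56.1, 24.3, -41.9, 30.3 and 136.4 with butyrate against 158.8 and 104.4 in untreated cells. With 4 of 5 butyrate arrays at the floor it measured no change that can be sized (-0.39, adjusted p = 0.226), and it passed the filter through the untreated arrays and butyrate 24 h alone.

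Nolc1 did not pass against untreated cells on any of its 3 probe sets, and they went different ways. M94287_at read 1545.1, 1263.4, 783.7, 400.4 and 203.9 with butyrate, against 2244.5 and 1210.8 in untreated cells. The early butyrate values lay between the untreated ones and the 24 h value at 11.8% of their mean, so that the group difference of -1.32 had a wide interval (-2.86 to 0.22, adjusted p = 0.245). rc_AA998882_s_at read 672.0, 207.2, 133.7, 187.5 and 112.0, against 821.2 and 544.0. Its butyrate 2 h value also lay between the untreated ones, and the difference of -1.68 (-2.87 to -0.49) missed the threshold (adjusted p = 0.0635). rc_AA859299_at read 576.3, 742.9, 673.7, 699.3 and 694.9, against 704.1 and 594.1, and differed by 0.06 (-0.49 to 0.61, adjusted p = 0.916). The probe sets of this gene therefore disagree at late hours, where 2 were at 16.4% of the untreated mean or less after 24 h and 1 at 107.1%.

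Every butyrate array lay under both untreated arrays on 6 of the 10 probe sets, where 13.2% of all tested probe sets did so. At 2 h alone, 8 of 10 were under both untreated arrays (29.9% of all), but 0 of 10 were 2-fold below untreated cells of that hour (8.78% of all). The dim Gnl3 probe set is one of those 8, but it was at the floor on butyrate 2 h. Its place there was fixed by the filter, and nothing is read from it. At 24 h, 8 of 10 were at least 2-fold below the untreated array of that hour (9.99% of all), the exceptions being Nolc1 rc_AA859299_at and the dim Gnl3 probe set. These single-array counts carry no test.

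The calls rested on a pair of untreated arrays. The nucleolar probe sets lost their calls when either untreated array was left out, while calls over all probe sets became fewer but part of them remained. Those fits hold no repeat of the untreated group, so only sizes are read from them. The 6 differences stayed negative, between -2.37 and -1.16, whichever array was left out. Of the 10 probe sets 3 were called without aspirin 2, 12 or 16 h and 2 without butyrate 12, 16 or 24 h. When dim probe sets were also tested 0 were called (limma, adjusted p from 0.0514 to 0.122 for the 6, with 7 at an unadjusted p under 0.05). Calls over all probe sets also dropped, from 716 to 654, 531 and 514 without those aspirin arrays and to 344, 310 and 400 without those butyrate arrays. With dim probe sets tested they were 358.

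**Figure D2:**
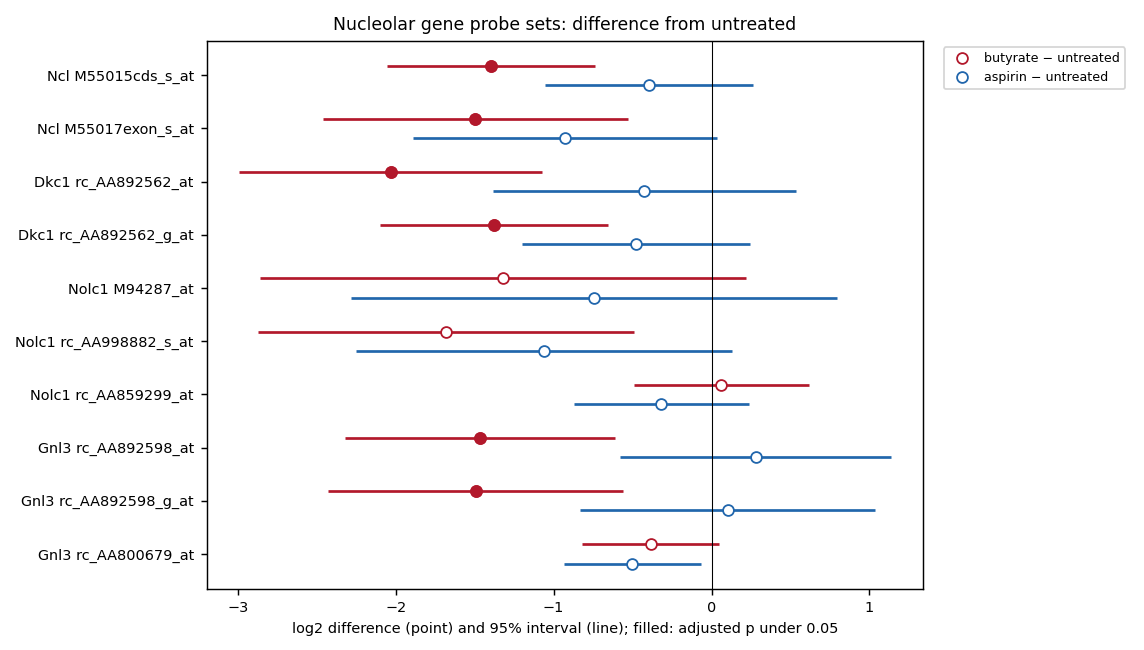
Log2 difference from untreated cells (horizontal axis) for each probe set, butyrate above aspirin, with 95% intervals from limma as lines and filled points for an adjusted p under 0.05. The 6 filled points are butyrate differences of Ncl, Dkc1 and Gnl3 between -2.03 and -1.38, and no aspirin point is filled.

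The second comparison set aspirin against untreated cells. None of the 10 nucleolar probe sets passed (0 called by limma, 1 at an unadjusted p under 0.05, the dim one of Gnl3), where 0.147% of all tested probe sets were called, 0.0654% lower and 0.0817% higher. Ncl M55015cds_s_at read 13500.5, 13610.7, 9548.4, 15952.1 and 16965.6 after 2, 6, 12, 16 and 24 h of aspirin, against 19156.6 and 16814.5 in untreated cells. The value at 24 h lay just above that of untreated cells of the same hour, and the group difference of -0.39 had an interval of -1.05 to 0.26 (adjusted p = 0.696). The exon probe set of Ncl read 939.1, 724.6, 1666.0, 1778.8 and 1413.9 with aspirin, all under the untreated 2962.1 and 1859.9, with a difference of -0.93 (-1.89 to 0.04, adjusted p = 0.488). It was lowest at 2 and 6 h, hours at which the coding-sequence probe set was at 75.1 and 75.7% of its untreated mean.

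Dkc1 and Gnl3 differed in where their aspirin values fell. Dkc1 rc_AA892562_at read 3196.4, 2426.6, 2420.3, 3057.7 and 1729.6 with aspirin, against 3209.3 and 3539.8 in untreated cells (-0.43, -1.39 to 0.53, adjusted p = 0.806). Its companion rc_AA892562_g_at read 1209.0, 1707.2, 1532.3, 2164.4 and 1806.1, against 2304.9 and 2297.7 (-0.48, -1.20 to 0.25, adjusted p = 0.654). All aspirin values of both lay under the untreated ones, but they were lowest at 24 h on the first and at 2 h on the second. Gnl3 rc_AA892598_at read 4683.6, 6470.0, 4374.4, 3686.0 and 3469.2 with aspirin, against 3417.0 and 3891.9 in untreated cells (0.28, -0.58 to 1.13, adjusted p = 0.868). Gnl3 rc_AA892598_g_at read 5961.4, 6096.6, 5680.6, 2972.0 and 3068.3, against 4717.8 and 3757.3 (0.10, -0.83 to 1.04, adjusted p = 0.985). On both Gnl3 probe sets the arrays of 2, 6 and 12 h lay above both untreated arrays and those of 16 and 24 h did not.

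Nolc1 with aspirin again varied by probe set. M94287_at read 2228.8, 1156.1, 876.3, 1003.9 and 406.4, against 2244.5 and 1210.8 in untreated cells, with 4 of 5 values under both (-0.74, -2.28 to 0.79, adjusted p = 0.774). rc_AA998882_s_at read 202.6, 377.6, 327.6, 369.0 and 366.3, against 821.2 and 544.0, all below (-1.06, -2.25 to 0.13, adjusted p = 0.515). rc_AA859299_at read 450.2, 529.7, 436.4, 574.2 and 628.6, against 704.1 and 594.1 (-0.32, -0.87 to 0.23, adjusted p = 0.713). The dim Gnl3 probe set was at the floor on all 5 aspirin arrays. In all, every aspirin array lay under both untreated arrays on 5 of 10 probe sets, where 7.78% of all tested probe sets did, and above both on 0 of 10 (3.81% of all). The dim Gnl3 probe set is one of those 5, but its place there was fixed by the filter, and nothing is read from it. At least 2-fold below untreated cells of the same hour were 2 of 10 at 2 h (12.6% of all) and 2 of 10 at 24 h (5.02% of all). The median was -0.45 over the 10 and -0.04 over all. Both drugs were set against the same untreated arrays, so these differences are not independent of those with butyrate. Without untreated 24 h calls over all probe sets rose, and the dim Gnl3 probe set was among them. That fit holds no repeat of the untreated group, and the value of this probe set is set by the floor and the filter, so nothing is read from it.

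Butyrate was compared with aspirin directly on the 10 treated arrays, with the hour as a block. Gnl3, Dkc1 and Ncl were lower with butyrate than with aspirin on 4 of the 10 probe sets and higher on 0, where 9.61% of all tested probe sets were called lower. Gnl3 differed by -1.74 ± 0.23 (limma, adjusted p = 0.00786) and -1.60 ± 0.18 (adjusted p = 0.00586) on its bright probe sets. At the same hour aspirin stood 1.62-fold above butyrate after 2 h on rc_AA892598_at and 3.85, 3.94, 4.10 and 4.16-fold above it after 6, 12, 16 and 24 h. The gap was thus nearly as wide at 6 h as at 24 h, and this was the 1 probe set of 10 on which every butyrate array lay under every aspirin array (5.3% of all). Dkc1 rc_AA892562_at differed by -1.61 ± 0.26 (adjusted p = 0.0124), with 1.54-fold higher aspirin values at 2 h and 5.38-fold at 16 h. The other Dkc1 probe set did not pass (-0.90, -1.68 to -0.13, adjusted p = 0.0866). On it aspirin lay below butyrate at 2 h (ratio 0.691) and above it from 6 h on, and without aspirin 2 h the difference was -1.26 (adjusted p = 0.00832).

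Ncl on its coding-sequence probe set was lower with butyrate than with aspirin (interval -1.62 to -0.38, limma, adjusted p = 0.0358). The drugs were alike at 2 h, where aspirin stood 1.03-fold above butyrate, and 3.30-fold apart at 24 h. The exon probe set of Ncl (-0.57, -1.54 to 0.41, adjusted p = 0.338) and all 3 of Nolc1 did not pass: M94287_at at -0.58 (-1.18 to 0.02, adjusted p = 0.136), rc_AA998882_s_at at -0.62 (-1.88 to 0.63, adjusted p = 0.41) and rc_AA859299_at at 0.38 (0.0054 to 0.75, adjusted p = 0.119). The last was the only bright probe set with butyrate above aspirin at every hour. Counted hour by hour, 0, 4, 5, 7 and 6 of the 10 probe sets were at least 2-fold lower with butyrate than with aspirin at 2, 6, 12, 16 and 24 h, where 3.71, 6.46, 7.34, 9.35 and 9.28% of all tested probe sets were.

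The median difference between the drugs was -0.76 over the 10 probe sets and 0.10 over all. Median centring moved the median over all by -0.31 and that over the 10 to -1.07. With it 6 of the 10 were called lower, but so were 1516 of all tested probe sets, against 588 as reported. Only Gnl3 rc_AA892598_g_at was called whichever array was left out (adjusted p up to 0.0445). The count was 2 without aspirin 6, 12 or 24 h or butyrate 6, 12 or 24 h, and 1 without aspirin or butyrate 16 h. In the same order these fits called 461, 340, 607, 442, 362, 594, 244 and 241 of all tested probe sets, against 1540 with every array.

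**Figure D3:**
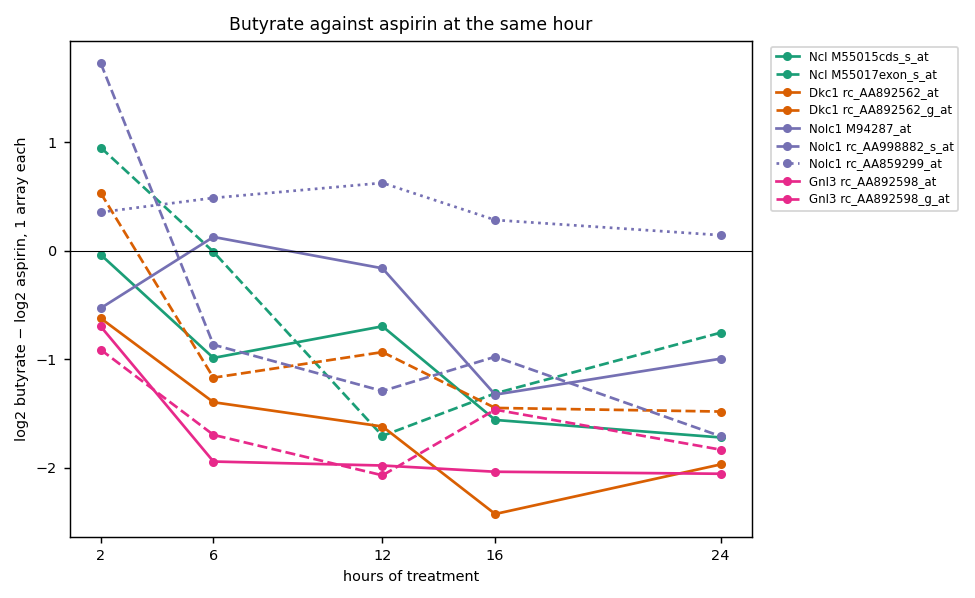
Log2 butyrate minus log2 aspirin at the same hour (vertical axis, 1 array on each side) against hours of treatment for 9 probe sets, coloured by gene; the dim Gnl3 probe set is left out. From 12 h all but Nolc1 rc_AA859299_at lie under 0, and the Gnl3 pair is already at -1.94 and -1.70 at 6 h.

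The trend over hours was fitted as a straight line on log2 hours for each drug, so that a slope is the log2 change for each doubling of the time. All 4 genes fell over the hours of butyrate on at least 1 probe set. With butyrate 7 of 10 probe sets fell and 0 rose, where 8.99% of all tested probe sets passed, 4.2% falling and 4.79% rising. Nolc1 had the steepest slopes, -0.77 ± 0.17 on M94287_at (limma, adjusted p = 0.0291) and -0.67 ± 0.12 on rc_AA998882_s_at (adjusted p = 0.0161), and 0.07 (-0.11 to 0.24, adjusted p = 0.688) on rc_AA859299_at. The slope of Dkc1 was -0.60 ± 0.08 (adjusted p = 0.00699) on rc_AA892562_at and -0.36 ± 0.09 (adjusted p = 0.043) on the other, and those of Gnl3 were -0.53 ± 0.08 (adjusted p = 0.00936) and -0.52 ± 0.09 (adjusted p = 0.0148). Ncl had slopes of -0.38 ± 0.09 (adjusted p = 0.0388) and -0.35 (-0.72 to 0.02, adjusted p = 0.227). The median slope was -0.45 over the 10 and 0.02 over all.

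With aspirin 0 of 10 slopes passed (limma, 2 at an unadjusted p under 0.05), where 1.65% of all did, 0.327% falling and 1.32% rising. The most negative was that of Nolc1 M94287_at, at -0.57 (-0.96 to -0.19, adjusted p = 0.108), followed by Gnl3 rc_AA892598_g_at, at -0.29 (-0.50 to -0.07, adjusted p = 0.141). The others lay between -0.16 and 0.28. For Nolc1 M94287_at the slopes of the drugs differed by -0.20 (-0.74 to 0.34, adjusted p = 0.743). The slopes of the drugs differed for 1 of 10 probe sets, Nolc1 rc_AA998882_s_at (-0.89 ± 0.17, adjusted p = 0.0491), where 1.73% of all passed, 1.05% with the lower slope under butyrate and 0.686% with the higher. Its difference did not pass in 9 of 10 fits without 1 array, the exception being that without aspirin 6 h.

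The butyrate slopes leaned on the first hour, as did those over all probe sets, where calls fell from 550 to 81 without butyrate 2 h. Without butyrate 2 h 0 of 10 passed (limma, 5 at an unadjusted p under 0.05), and the slope of the coding-sequence probe set of Ncl was -0.21, that of its exon probe set 0.11 and that of Dkc1 rc_AA892562_g_at -0.092, while those of Gnl3 rc_AA892598_at (-0.53) and Dkc1 rc_AA892562_at (-0.54) were close to the full values. Without butyrate 16 h 3 passed, and 2 without butyrate 24 h, where 231 and 257 of all tested probe sets did.

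**Figure D4:**
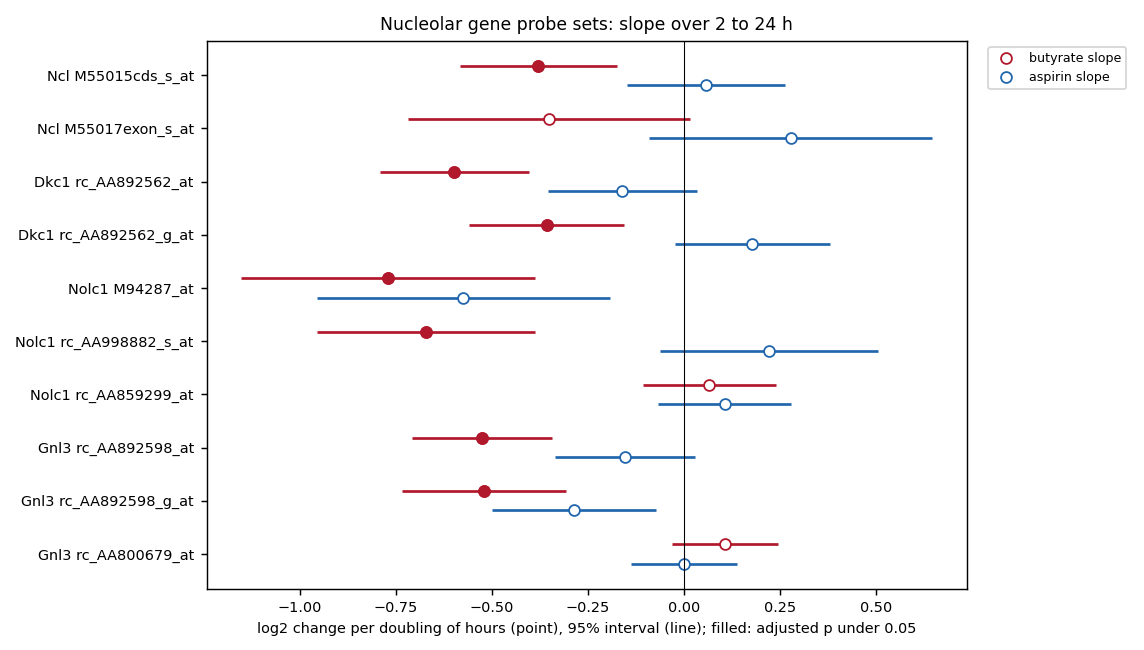
Log2 change per doubling of hours (horizontal axis) for each probe set, butyrate above aspirin, with 95% intervals from limma as lines and filled points for an adjusted p under 0.05. The 7 filled points are butyrate slopes between -0.77 and -0.36.

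Across the 12 arrays the probe sets of different genes ran together to different degrees. These correlations of log2 levels are descriptions, since the arrays share treatments and hours. Ncl M55015cds_s_at ran at r = 0.948 with Dkc1 rc_AA892562_g_at and at 0.919 with rc_AA892562_at, higher than with its own exon probe set (0.755). The Gnl3 pair ran at 0.97 and the Dkc1 pair at 0.903. Nolc1 M94287_at and rc_AA998882_s_at ran at only 0.589, and rc_AA859299_at ran at -0.73 to -0.18 with the other bright probe sets. Of all other genes, those most like the mean profile of the 4 genes (each by its brightest probe set, Pearson r over 12 arrays) were Hmgb2, for a chromatin protein (0.983), the proprotein convertase gene Pcsk6 (0.98), Pcna, the sliding clamp of DNA replication (0.964), Mybbp1a, a nucleolar Myb-binding protein (0.961), and Mcm7, of the replicative helicase (0.96). The nearest to a single gene were Prx for Ncl (0.963, with 4 of 5 butyrate arrays of Prx at the floor), Racgap1 for Nolc1 (0.963), Hnrnpab for Dkc1 (0.969) and Parp2 for Gnl3 (0.973).

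Other genes of ribosome production were taken from lists, with the brightest probe set of each gene. With butyrate 2 of 8 genes of RNA polymerase I and its factors, 2 of 9 ribosome assembly factors and 1 of 19 translation factors were called lower, where 3.92% of all tested probe sets were, and 0 genes of these lists were called higher. A single call among 19 is near that share, which covers every tested probe set and not only the brightest of each gene. The genes of the largest subunits of RNA polymerase I fell: Polr1a differed by -1.84 ± 0.40 with all 5 butyrate arrays at the floor (limma, adjusted p = 0.0131), and Polr1b by -1.41 ± 0.42 (adjusted p = 0.0471, with -0.31 and 0.163 on its other probe set). The size for Polr1a is set by the floor, being -0.84 and no longer called with a floor of 182.2 and -6.27 with one of 4.2. Ubtf, an activator of ribosomal RNA transcription, read -0.95 (adjusted p = 0.0816). Mybbp1a fell by 1.96 ± 0.45 (adjusted p = 0.0165, with -1.33 and 0.0584 on its other probe set), the RNA helicase gene Ddx21 by 0.94 ± 0.26 (adjusted p = 0.0372) and the initiation factor gene Eif5 by 0.96 ± 0.28 (adjusted p = 0.0394, with -1.06 and 0.127 on its other probe set). Without untreated 2 h these sizes moved to -1.16 for Polr1a, -0.89 for Polr1b, -0.48 for Ddx21 and -0.58 for Eif5, and 0 of the 4 passed (limma), while without untreated 24 h they were -2.52, -1.92, -1.39 and -1.35. Medians were -0.43 for RNA polymerase I, -0.63 for assembly factors and -0.26 for translation factors, beside 0.00085 over all probe sets and -1.44 for the 4 nucleolar genes.

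The small nucleolar ribonucleoprotein partners had 2 measured genes, Nop58 (-0.14, adjusted p = 0.841) and the ATPase gene Ruvbl1 (-0.88, adjusted p = 0.0601), and neither passed against untreated cells (limma). Against aspirin both were lower with butyrate, by 0.71 (adjusted p = 0.0361) and 0.92 (adjusted p = 0.0255), as were 6 of 9 assembly factors, among them Mrto4 (-1.13, adjusted p = 0.0175), where 9.61% of all tested probe sets were called lower and 25.2% either way. These 3 genes were named after their values were seen. With aspirin against untreated cells 0 genes of these 4 lists passed, where 0.147% of all tested probe sets were called. That share is so small that nothing is read from the 0.

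Myc, a transcription factor known to drive ribosome production, read 1002.1, 684.3, 555.5, 388.0 and 367.3 on its brightest probe set over the hours of butyrate, against 3789.8 and 3820.6 in untreated cells. It was thus 3.78-fold below untreated cells of the same hour at 2 h, when the coding-sequence probe set of Ncl was at 0.687 and Dkc1 rc_AA892562_at at 0.647 of that array. Each of these ratios rests on 1 array on each side, and the order of the falls was not tested. Its partner Max rose by 2.57 ± 0.39 (limma, adjusted p = 0.00187, with 0.67 and 0.215 on its other probe set), a size that was 1.57 with a floor of 182.2 and 7.01 with one of 4.2. Both untreated arrays and all 5 aspirin arrays of Max were at the floor. It passed the filter through the butyrate arrays alone, so nothing is read from its test, here or with 1 array left out. The Myc antagonist Mxi1 rose by 1.65 ± 0.36 (adjusted p = 0.0131, with 1.18 and 0.143 on its other probe set). In all 1 of 5 measured genes of this network fell and 2 rose, where 3.92% of all tested probe sets were called lower and 7.78% higher. Max is among the 2, so the count of rises is not read against that share. Of 18 proliferation genes 3 fell and 0 rose, against those same shares of all probe sets, and all 18 values were negative (median -1.10). The 3 were Tyms, of thymidylate synthesis, at -1.83 with 4 of 5 butyrate arrays at the floor (limma, adjusted p = 0.008, with sizes of -1.01 and -2.57 at the higher and the lower floor), the mitotic cyclin gene Ccnb1 at -1.78 (adjusted p = 0.0287, with -1.76 and 0.0411 on its other probe set) and Pcna (adjusted p = 0.0431, with -1.18 and 0.103 on its other probe set). Of 9 genes tied to nucleolar release and p53, a single one passed, against the same shares of all probe sets: Ywhae, for an adaptor protein of the 14-3-3 family that binds phosphorylated proteins (-0.69 ± 0.15, adjusted p = 0.0135, with -0.72 and 0.312 on its other probe set), and the list had a median of -0.18. Of 12 fits without 1 array, Myc was called in 12, Polr1a and Tyms in 11, and Mybbp1a, Ywhae and Mxi1 in 10. Ccnb1 was called in 7, Ddx21 in 5, Eif5 in 3, Pcna in 2 and Polr1b in 1. Each of these genes except Myc was lost without an untreated array.

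**Figure D5:**
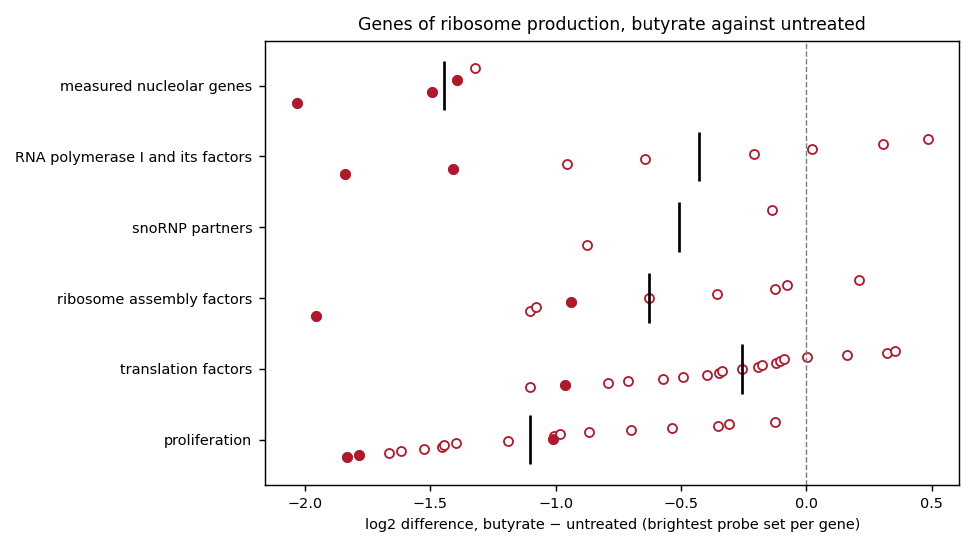
Log2 difference of butyrate minus untreated cells (horizontal axis) for the brightest probe set of each gene, by list; filled points have an adjusted p under 0.05 (limma), black bars are list medians and the dashed line is the median of all tested probe sets. The 4 nucleolar genes lie between -2.03 and -1.32, the last being Nolc1, which is not called. The 18 proliferation genes lie between -1.83 and -0.12 with a median of -1.10, and the lists of RNA polymerase I, assembly and translation factors spread from -1.96 to 0.49.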

How the data were processed

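Expression was measured on 12 arrays, and the deposited value table was used (1 column per array, 8799 probe sets, 59 of them controls). The deposited values were taken as intensity because they are linear and partly negative; which software and scaling the authors used was not stated in the labels, and nothing was normalized again. The floor was the size of the 10th percentile of all values, which is below 0. A probe set stayed in the tests if its mean log2 exceeded 6.54, the 30th percentile, which removed 2622. Probe sets were named from the platform annotation (7006 with 1 gene, 308 with several, 1426 with none; 0 symbols had changed). limma 3.58.1 in R 4.3.3 fitted the 3 groups (9 residual degrees of freedom), the drugs with the hour as a block (4) and the slopes (6), each with a variance trend; the fits were tested on simulated data. The number of arrays limits the precision. Named genes were the 10 probe sets, up to 6 called genes of each of 11 lists, Myc, Max, and the genes most alike in profile. Members and lists were chosen with earlier results of these data known. Alternatives were other floors, no filter, other scalings, no trend, other blocks, hours in place of log2 hours, and leaving out each array; the fit with neither filter nor trend was chosen after seeing the data.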

Additional observations from a re-analysis of the deposited data

Results flagged for a closer look

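Of 20 groups of 5 arrays examined (10 probe sets with each drug), 3 held an array far from the others. Chance flags about 1 in 20 groups of replicates, but these groups are 5 different hours, so the 3 cannot be set against that rate. Dkc1 rc_AA892562_g_at after 2 h of butyrate, at 1748.6, was separated from the other butyrate arrays by 0.783 of the range of their log2 values. Nolc1 rc_AA998882_s_at after 2 h of aspirin, at 202.6, was separated below the other aspirin arrays by 0.772 of the range. The dim Gnl3 probe set rc_AA800679_at after 24 h of butyrate, at 136.4, was the only butyrate array above the floor there, so that the gap is the whole range (1). The slope of Nolc1 rc_AA998882_s_at over log2 hours differed between butyrate and aspirin by -0.89.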

How the results depend on the processing

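All values below come from limma. Of the 10 probe sets, 6 were called in butyrate against untreated cells, but 0 with no filter and 0 with neither filter nor trend, and 0 to 7 when 1 array was left out. The fall over the hours of butyrate was called for 7, for 4 with no filter, 4 with neither filter nor trend and 4 with the slope on hours, and for 0 to 6 without 1 array. Butyrate against aspirin gave 4, 3 to 6 under other settings and 1 to 6 without 1 array. Aspirin against untreated cells gave 0 to 1 without 1 array. The aspirin slope gave 1 with median centring, 1 with the slope on hours and 0 to 1 without 1 array. The slope difference gave 0 with the floor at the 5th percentile, no filter, neither filter nor trend, quantile normalization, median centring or the slope on hours, and 0 to 2 without 1 array. The causes were not tested.

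The hours shared by butyrate and aspirin arrays are only a number: deviations of same-hour arrays correlated at 0.0215 to 0.223, and 1 of 5 butyrate arrays matched its own hour best. With the hour as a replicate block, butyrate against untreated cells gave 2 probe sets over all arrays and 0 over the 2 and 24 h arrays alone (0 of all probe sets, 577 at an unadjusted p under 0.05), the slope difference gave 0, and butyrate against aspirin without the replicate block gave 5.

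Signs turned for values that had not passed the test, as follows. Nolc1 rc_AA859299_at in butyrate against untreated cells was -0.10 with quantile normalization, -0.13 with median centring, -0.031 with the replicate block on 2 and 24 h arrays, and -0.061 to 0.18 without 1 array. Its butyrate slope was -0.046 to 0.082 and its slope difference -0.15 to 0.0015 without 1 array. With median centring the dim Gnl3 probe set was -0.19 in butyrate against aspirin and the aspirin slope of Ncl M55015cds_s_at -0.016. Without 1 array that slope was -0.020 to 0.19, the butyrate slope of the Ncl exon probe set -0.52 to 0.11, the aspirin slope of Nolc1 rc_AA998882_s_at -0.013 to 0.26, the slope difference of Nolc1 M94287_at -0.74 to 0.00020 and that of Gnl3 rc_AA892598_g_at -0.29 to 0.042, and Gnl3 rc_AA892598_g_at in aspirin against untreated cells -0.062 to 0.27.

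Over all probe sets, median centring moved the median by -0.19 in butyrate against untreated cells, 0.12 in aspirin against untreated cells and -0.31 in butyrate against aspirin, and quantile normalization the last by -0.12. The share of calls that were lower was 54.2% with median centring in butyrate against untreated cells (33.5% as reported), 72.7% in butyrate against aspirin (38.2%), 61.8% for the butyrate slope (46.7%) and 67.8% for the aspirin slope (19.8%, and 39.5% with quantile normalization). With no filter, calls were 358 in butyrate against untreated cells (716 as reported), 778 in butyrate against aspirin (1540), 329 for the butyrate slope (550) and 37 for the slope difference (106). With neither filter nor trend they were 342, 692, 279 and 31 in the same order, and 65 for the aspirin slope (101). The replicate block gave 317 in butyrate against untreated cells and 0 for the slope difference, and the slope on hours 230 for the aspirin slope and 70 for the slope difference. Aspirin against untreated cells gave 18 with the floor at the 5th percentile, 5 with no trend and 0 with either other scaling or either block (9 as reported; 293 to 631 at an unadjusted p under 0.05). The aspirin slope gave 282 with the floor at the 25th percentile and 258 with median centring. Without 1 array, calls ranged over 310 to 1166, 1 to 306, 241 to 1645, 81 to 541, 6 to 231 and 3 to 119 in butyrate against untreated cells, aspirin against untreated cells, butyrate against aspirin, the butyrate slope, the aspirin slope and the slope difference. Probe sets at the floor have no order, and 13.4 to 21.1% of tested values per array lay there.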
